A study of Mus musculus with 14 samples.

Results

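Sites of histone H3 lysine 27 acetylation (H3K27ac) at the 3′ ends of protein-coding genes were examined in immortalised mouse embryo fibroblasts (iMEF). A site was taken when its middle was within 1 kb of the annotated 3′ end of a GENCODE protein-coding gene and more than 3 kb from the transcriptional start site (TSS) of any annotated transcript, coding or not. This left 1390 of the 122228 sites of the list, or 1.14% (95% Wilson interval 1.08 to 1.20%). They are called end sites below, and a coding gene with its end within 1 kb of the middle of an end site is a host gene. A site with several hosts is described at the nearest. The rule used positions only. Width, side of the 3′ end, host gene length, promoter status and sequence played no part in it.

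The list came from 14 ChIP-seq libraries in 8 groups. Untreated control cells and cells treated with dTAG for 30 min or for 2, 4, 8 or 16 h had 2 H3K27ac libraries each, and 1 input library came from control cells and 1 from cells treated for 16 h. All cells, the controls included, expressed human ASH2L fused to the FKBP12F36V degron from a lentivirus, in fibroblasts whose own Ash2l gene had been inactivated by Cre recombinase. The study carried out its ChIP-seq in 1 clone, NG3, and dTAG-13 makes the fusion protein a substrate for degradation. The list holds a chromosome, a start and an end per site, with no value per library, so neither the level of acetylation nor its change with time can be read from it, and the sequencing depth behind a site is unknown. The labels do not say whether the paired libraries came from separate cultures, and the study calls its ChIP-seq duplicates biological replicates. Intervals below cover counting error only, and spread is given over the 20 chromosomes (1 to 19 and X).

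H3K27ac is deposited by the acetyltransferases p300 and CBP and marks active promoters and active enhancers. The 3′ end of a gene is where the transcript is cleaved and polyadenylated, commonly at an AATAAA signal, while RNA polymerase II runs on into the flanking sequence before it is released. Acetylated regions away from promoters are often enhancers, and these can lie in introns, in exons or beside a gene as well as far from one. In fibroblasts many enhancers hold binding motifs of AP-1, TEAD and RUNX factors.

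To show what sequence lay under such sites, the central 300 bases are printed for sites downstream of the 3′ end without an annotated exon in those bases, written 5′ to 3′ on the strand of the host gene (GRCm38). The first set holds the 3 widest of these sites with a match to the AP-1 motif TGANTCA, and capitals mark the matches.
6430531B16Rik (chr7:139971438-139971737, strand −): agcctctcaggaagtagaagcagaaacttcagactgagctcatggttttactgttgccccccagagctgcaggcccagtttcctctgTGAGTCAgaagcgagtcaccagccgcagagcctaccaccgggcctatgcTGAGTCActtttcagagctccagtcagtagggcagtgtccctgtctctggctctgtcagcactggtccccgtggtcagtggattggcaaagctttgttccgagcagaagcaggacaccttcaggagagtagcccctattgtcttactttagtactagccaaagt
Hoxd11 (chr2:74687347-74687646, strand +): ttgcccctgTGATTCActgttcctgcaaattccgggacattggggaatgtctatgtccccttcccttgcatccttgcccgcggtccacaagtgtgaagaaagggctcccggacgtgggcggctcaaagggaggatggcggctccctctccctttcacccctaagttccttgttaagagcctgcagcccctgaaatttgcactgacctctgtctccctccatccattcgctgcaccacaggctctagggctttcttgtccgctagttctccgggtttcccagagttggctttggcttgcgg
Lrrc75b (chr10:75549013-75549312, strand −): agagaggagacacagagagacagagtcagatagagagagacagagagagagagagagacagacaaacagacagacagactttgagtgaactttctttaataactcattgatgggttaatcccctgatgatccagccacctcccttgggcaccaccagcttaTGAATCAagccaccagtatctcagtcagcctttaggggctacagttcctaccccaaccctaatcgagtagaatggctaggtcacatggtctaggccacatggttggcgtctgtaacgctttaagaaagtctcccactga
The second set holds 2 of the widest without such a match in their central 300 bases. The rest of these sites was not searched. The printed bases held no match to the TEAD motif GGAATG on either strand, so no letters are in capitals.
Dnajb12 (chr10:59900016-59900315, strand +): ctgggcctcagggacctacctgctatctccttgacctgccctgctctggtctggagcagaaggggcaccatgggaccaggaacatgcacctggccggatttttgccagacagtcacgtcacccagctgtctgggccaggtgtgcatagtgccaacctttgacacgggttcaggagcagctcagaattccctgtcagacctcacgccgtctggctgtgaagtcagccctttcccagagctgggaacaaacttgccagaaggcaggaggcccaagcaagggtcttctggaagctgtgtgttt
Gm10277 (chr11:77784441-77784740, strand −): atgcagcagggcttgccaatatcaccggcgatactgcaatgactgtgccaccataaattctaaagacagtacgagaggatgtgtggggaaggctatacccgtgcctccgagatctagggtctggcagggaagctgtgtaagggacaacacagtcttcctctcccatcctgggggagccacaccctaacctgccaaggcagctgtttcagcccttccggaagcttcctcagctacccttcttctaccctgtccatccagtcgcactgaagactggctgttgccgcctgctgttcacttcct
The sequence at 6430531B16Rik held 2 AP-1 matches and had a GC content of 54%, and those at Hoxd11 and Lrrc75b held 1 match each with a GC content of 57% and 48%. Hoxd11 encodes a homeobox transcription factor of the HoxD cluster. The sequences at Dnajb12 and Gm10277 had a GC content of 58.3% and 55.3%. The middles of these 5 sites were located 481 to 960 bp beyond the annotated end.

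End sites were denser than sites in the remaining sequence of the genome beyond 3 kb of a TSS. Of the bases further than 3 kb from any TSS, 25.6 Mb were within 1 kb of a coding gene end and held 54.2 sites per Mb, compared to 39.2 sites per Mb (83534 sites) in the other 2133 Mb, which is a 1.38-fold difference. Gene ends were the denser on 20 of 20 chromosomes, by a factor that ranged from 1.03 on chromosome 13 to 1.98 on the X chromosome, with a mean log2 ratio of 0.45 ± 0.27 (SD, n = 20 chromosomes). The comparison depended on what stood beside it. Sequence 1 to 5 kb from the ends held 49.35 sites per Mb before the end and 50.1 after it, against 54.2 within 1 kb. In the bodies of coding genes the density was 60.4 sites per Mb, so that gene ends reached 0.90 of it, and in sequence outside any gene it was 25.2 sites per Mb, of which gene ends had 2.15 times as many. Counted by bases, 3.22% of the sequence near gene ends was covered by sites, against 2.21% of the other sequence. Gene ends were above sequence outside any gene on 20 of 20 chromosomes, and above gene bodies on 7 of 20.

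The chromosomes differed more from each other than gene ends did from other sequence. Chromosome 15 had 95.9 end sites per Mb and chromosome 19 had 80.1, while chromosome 14 had 35.9 and the X chromosome 16.7. The other sites followed, with 62.6 per Mb on chromosome 15 and 8.43 on the X chromosome, as the plot of densities by chromosome shows.

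**Figure D1:**
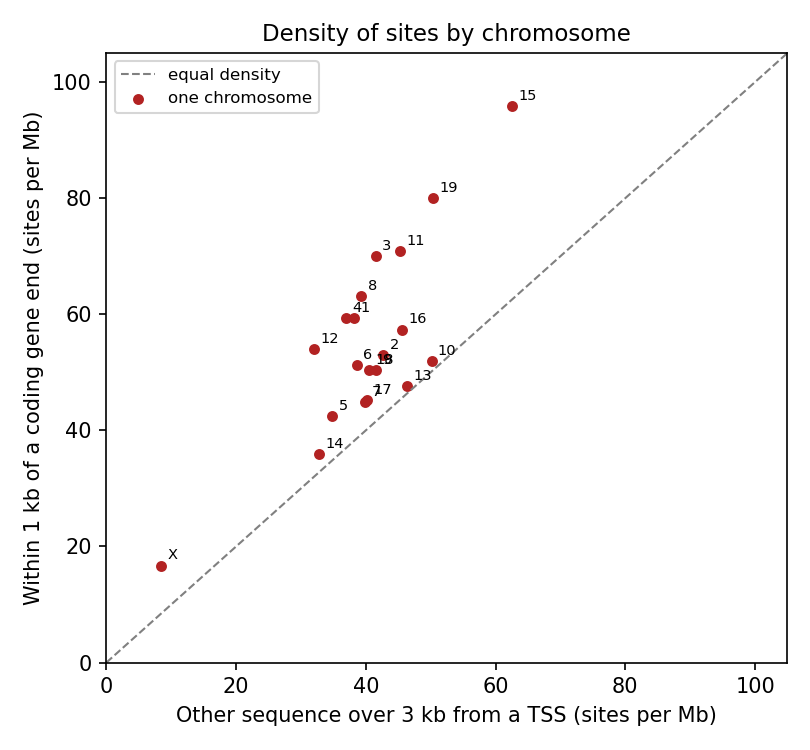
Each point is 1 chromosome, with the density of sites in other sequence over 3 kb from a TSS on the x axis and within 1 kb of a coding gene end on the y axis, both in sites per Mb. All 20 points are above the dashed line of equal density, chromosome 15 is the highest and the X chromosome the lowest.

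Around the 3′ end itself the sites were not evenly spread. The middle was inside the host gene for 629 end sites (45.3%, 42.7 to 47.9%) and downstream for 761, while 49.0% of the eligible bases were inside. This gave 50.1 sites per Mb inside and 58.2 downstream. Fewest were in the last 250 bp of the gene, where 92 middles gave 28.4 sites per Mb, compared to 57.2 sites per Mb (181 sites) in the 250 bp before. In the first 250 bp downstream 163 sites gave 49.6 per Mb, and in the next 250 bp 229 sites gave 70.0 per Mb, the peak of the profile between 5 kb upstream and 5 kb downstream. The last 250 bp had fewer sites per Mb than the 250 bp before them on 19 of 20 chromosomes, and fewer than the stretch from 251 to 500 bp downstream on 19 of 20. The last 250 bp and that stretch were the lowest and the highest of the same profile, so both counts only describe it. The sequence differed as well, since the GC content of the last 250 bp was 39.8%, against 43.7% in the 250 bp before and 44.5% at 251 to 500 bp downstream, and the part of base composition in the low count was not tested. The bases themselves were also covered less often, with 2.16% of the last 250 bp in sites against 3.12% before and 3.61% at 251 to 500 bp downstream.

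**Figure D2:**
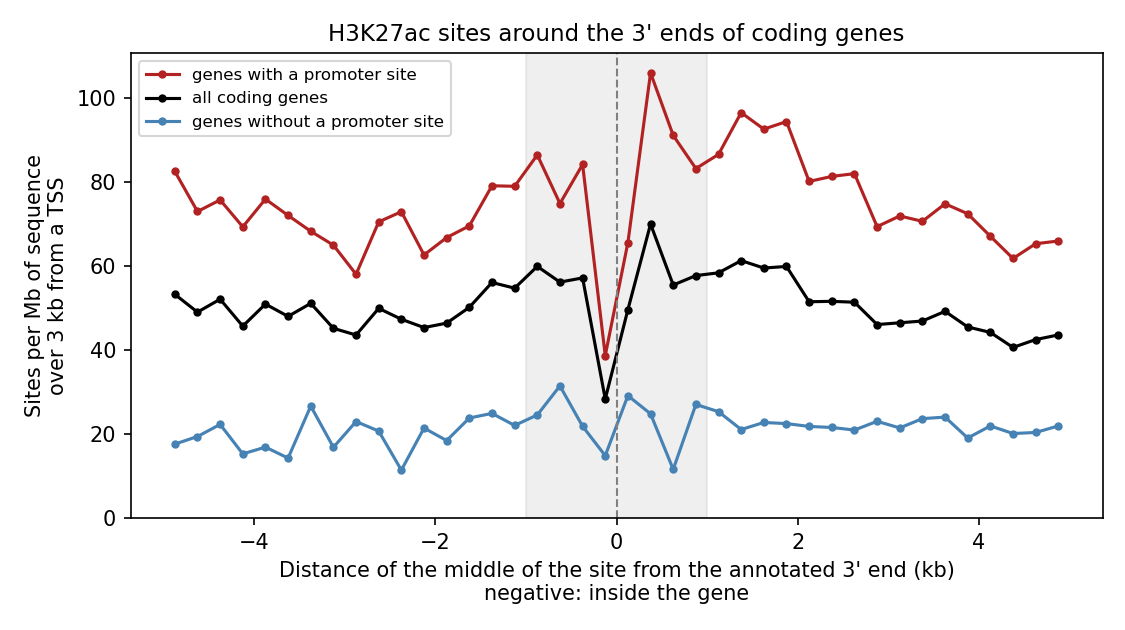
Sites per Mb of sequence over 3 kb from a TSS (y axis) by the distance of the middle of the site from the annotated 3′ end (x axis, kb, negative inside the gene, bins of 250 bp), for all coding genes and for genes with and without a promoter site. For all genes the density falls to 28.4 in the last bin inside the gene and reaches 70.0 in the bin from 251 to 500 bp downstream. The shaded band is the window that defines end sites.

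The dip was seen in genes whose promoter carried a site, defined as a site with its middle within 1 kb of a TSS of the gene. There the density was 84.1 sites per Mb from 500 to 250 bp before the end, 38.7 in the last 250 bp and 105.9 from 251 to 500 bp downstream. In genes without a promoter site the corresponding densities were 21.9, 14.9 and 24.8 sites per Mb, from 30, 21 and 36 sites, but the stretch from 501 to 750 bp downstream was lower still, with 17 sites and 11.6 per Mb. Over the whole window, genes with a promoter site had 70.7 sites per Mb inside and 86.3 downstream, whereas genes without had 23.1 and 23.2. The density 1 to 5 kb downstream was 77.7 sites per Mb with and 22.0 without a promoter site, close to the values within 1 kb of the end.

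Most end sites did not reach over the 3′ end. The last base of the host gene was covered by 230 end sites (16.5%, 14.7 to 18.6%), 537 lay wholly upstream of it and 623 wholly downstream. Sites over the end were wide, with a median of 775.5 bp, and 36 of them were above 2 kb, which were all of the end sites of that width. A wide site reaches further from its middle, so width and cover of the end are linked by construction. An end site above 2 kb must cover the end, because its middle is within 1 kb of it. Of the 629 sites with their middle inside, 484 (77.0%, 73.5 to 80.1%) were at 3′ UTR, which made up 73.4% of the eligible bases on that side, 56 were at a coding exon and 79 in an intron. Of the 761 downstream, 628 (82.5%, 79.7 to 85.1%) were intergenic, against 85.8% of the eligible bases, and the rest fell on features of neighbouring genes, among them 85 sites in introns. Of all, 73 end sites (5.25%) were within reach of coding genes on opposite strands. The widest of these, with 2006 bp, was at Cntnap1 and Ezh1, the second, with 1541 bp, at Dda1 and Ano8, and the third, with 1489 bp, at Zbtb7b and Dcst2. Ezh1 encodes a catalytic subunit of the Polycomb repressive complex PRC2.

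In width, end sites were like other sites far from promoters. The median was 370.5 bp for end sites, with quartiles of 247 and 634.8 bp. For the other sites beyond 3 kb of a TSS it was 368 bp (255 and 613 bp), and for promoter sites, with the middle within 1 kb of a TSS, 678 bp. The ratio of end sites to other sites beyond 3 kb was 1.01. It was above 1 on 8 of 20 chromosomes, with a mean log2 ratio of −0.01 ± 0.15 (SD, n = 20), so the difference was smaller than the spread between chromosomes. Above 1 kb were 168 end sites (12.1%, 10.5 to 13.9%), compared to 11.5% of the other sites and 33.2% of promoter sites. At the lower limit, 97 end sites (6.98%) were exactly 200 bp wide. Sites inside the gene had a median of 392 bp and those downstream of 362 bp. A neighbour at under 1 kb was found for 71.4% (68.9 to 73.7%) of the end sites and 71.5% of the other sites, so neighbouring sites are not independent, and 123 end sites (8.85%) had none within 10 kb.

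**Figure D3:**
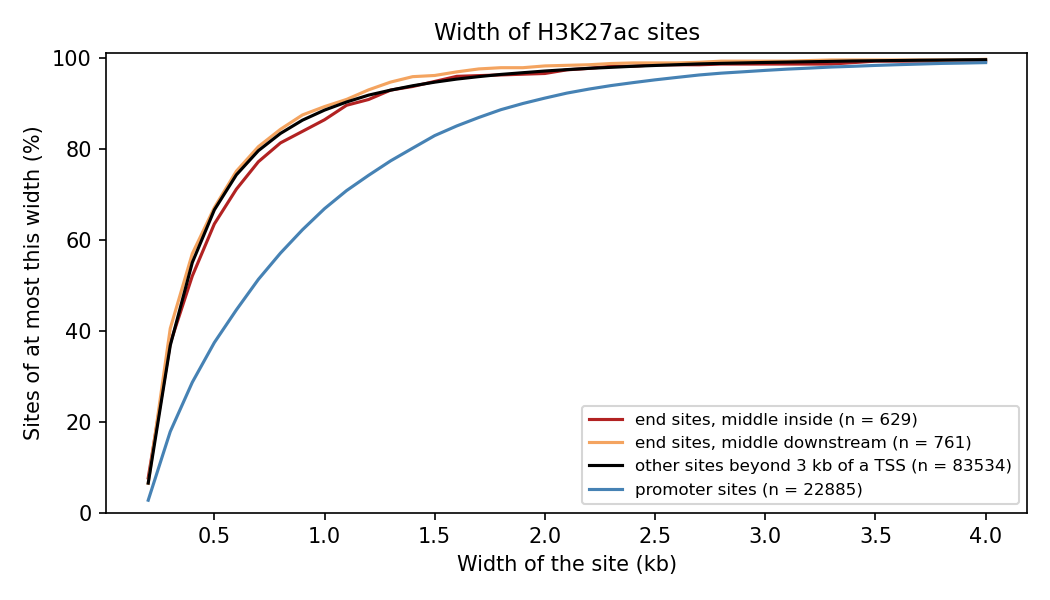
Share of sites (y axis, %) that are at most as wide as the value on the x axis (kb), for end sites with the middle inside or downstream of the gene, other sites beyond 3 kb of a TSS and promoter sites. The curves of both kinds of end sites run along that of the other distal sites, with medians of 392, 362 and 368 bp, and promoter sites are wider with a median of 678 bp.

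The widest end site had 8098 bp (chromosome 10, 59896117 to 59904214) and lay over the end of Dnajb12, a gene of 19.75 kb that encodes a DnaJ co-chaperone of the endoplasmic reticulum. Its middle was 864 bp downstream, 20540 bp from the nearest TSS, and the promoter site of the gene was narrower, with 1409 bp. The second, with 6753 bp (chromosome 3, 107738261 to 107745013), had its middle 589 bp before the end of Csf1, which encodes the macrophage growth factor M-CSF, and the promoter site there had 5571 bp. At Lmod1, which encodes a leiomodin that nucleates actin filaments, a site of 5058 bp (chromosome 1, 135365000 to 135370057) was 57 bp from the nearest other site, and 10 other sites were in the gene. H6pd, which encodes a hexose-6-phosphate dehydrogenase of the endoplasmic reticulum, had an end site of 4430 bp, and Arpc1b, a subunit of the Arp2/3 complex, one of 3458 bp. Tmem44 had one of 4382 bp, St5 one of 4056 bp in a gene with 78 other sites, and Anapc13, a subunit of the anaphase-promoting complex, one of 3149 bp. Each of the 15 widest end sites was above 2 kb and so, by the rule, covered the last base of the host gene.

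Host genes usually carried H3K27ac at their own promoter. Of 15632 coding genes with eligible bases at their end, 1113 (7.12%, 6.73 to 7.53%) had at least 1 end site, 797 of them 1, 258 had 2, 54 had 3 and 4 had 4. Hosts were not all separate, because 1 site of 224 bp on chromosome 18 was within reach of 22 genes, 21 of them protocadherin γ (Pcdhg) genes that end together, and 4 of the 22 had a promoter site. Among the hosts 892 (80.1%, 77.7 to 82.4%) had a promoter site, compared to 54.0% (53.2 to 54.9%) of the 14519 genes without an end site. The share was higher in hosts on 19 of 20 chromosomes, with means of 79.6 ± 10.2% and 54.8 ± 6.84% (SD, n = 20 chromosomes). The exception was chromosome 18, with 22 of 50 hosts (44.0%) against 62.3% of the other genes. Counting the nearest gene alone for each site left 1048 hosts, of which 854 (81.5%, 79.0 to 83.7%) had a promoter site. The share was then higher on 20 of 20 chromosomes, although chromosome 18, with 18 of 28 hosts (64.3%, 45.8 to 79.3%), did not differ beyond its interval. Seen from the promoter, 10.2% (9.59 to 10.9%) of the 8739 genes with a promoter site had an end site and 3.21% (2.82 to 3.65%) of the 6893 without. Hosts also had other sites in the gene more often (63.5% against 30.4%), and 110 hosts (9.88%) had neither, against 39.9% of the genes without an end site.

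Genes with end sites were longer, with a median of 29.6 kb against 23.2 kb, and the difference in promoter sites was seen at every length. In each of 6 length classes the end-site share was higher with a promoter site than without, and the intervals did not overlap. With a promoter site it was 9.56% in genes up to 5 kb and 10.8% in those over 100 kb, so it hardly varied with length. Without one it was 2.62% and 5.44% in the same classes, and 2.52% and 3.74% with the nearest gene alone as the host, where the intervals were apart in all 6 classes as well.

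**Figure D4:**
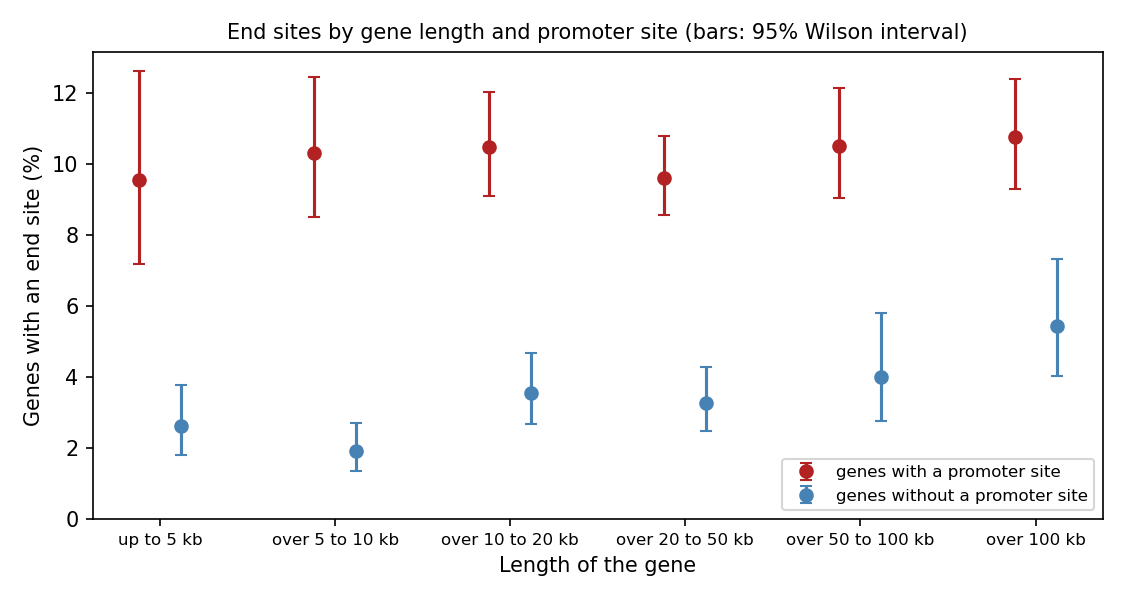
Share of eligible coding genes with an end site (y axis, %) by gene length (x axis), for genes with and without a promoter site, with 95% Wilson intervals. With a promoter site the shares lie between 9.56 and 10.8% in all 6 classes, and without one between 1.92 and 5.44%.

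The width of the promoter site and the number of sites in the gene body went along with end sites. Of genes whose widest promoter site had 200 to 744 bp, 7.62% (6.58 to 8.81%) had an end site, and of those with 1643 to 22157 bp, 15.6% (14.1 to 17.1%). Genes without other sites in the body had one in 3.86% (3.51 to 4.25%), genes with 1 or 2 in 11.5%, with 3 to 9 in 13.4%, with 10 to 29 in 16.6% and with 30 or more in 23.5% (19.3 to 28.3%). In the 10518 genes without other sites in the body, the share was 6.41% (5.74 to 7.15%) with and 1.86% (1.55 to 2.24%) without a promoter site. With 1 or 2 body sites it was 12.4% (10.8 to 14.1%) and 8.89% (6.75 to 11.6%), with 3 to 9 it was 13.2% and 14.4%, with 10 to 29 it was 17.3% and 10.9%, and with 30 or more 24.0% and 15.8%, and in these 4 classes the intervals overlapped. Where both were present, the end site was mostly the narrower one. It was wider than the promoter site in 109 of 892 hosts (12.2%, 10.2 to 14.5%), and the median ratio was 0.32.

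The hosts without a promoter site included Wfdc1, which encodes a secreted protein with a WAP domain. Its end site of 3350 bp (chromosome 8, 119686464 to 119689813) covered the annotated end, the nearest other site was 15267 bp away, and no site overlapped the promoter window. Wnt2b, a Wnt ligand, had an end site of 2227 bp, Scgb1a1, a secretoglobin of airway club cells, one of 2048 bp, Slc13a2, a transporter of dicarboxylates, one of 2029 bp and Rem2, a small GTPase, one of 1912 bp, and no site overlapped their promoter windows either. Gm10277 (5055 bp), Trhr2 (2135 bp) and Ly6f (1901 bp) differed from these, since a site overlapped the promoter window, at Gm10277 the end site itself. The end site at Ly6f was also near the limit of the rule, at 3002 bp from a TSS. Among the shortest hosts, Gm10277 had 2.295 kb, Cited2, a CBP-binding transcriptional regulator, 2.457 kb with an end site of 756 bp, and Il1f10 2.625 kb with one of 924 bp. The longest gene records were Gm20388 with 4435 kb, whose end is shared with Galnt2, Fgfr2 with 2961 kb and Lsamp with 2197 kb.

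Genes of the extracellular matrix, which fibroblasts produce, had end sites in 9 of 25 eligible members (36.0%, 20.2 to 55.5%), beside 7.12% of all eligible coding genes and 10.2% of those with a promoter site. This and the following lists were put together with earlier results of these data known and describe these genes only. Col1a1, which encodes a chain of type I collagen, had 2 end sites. The one of 1519 bp (chromosome 11, 94952706 to 94954224) had its middle 423 bp downstream and covered the end, and one of 707 bp preceded it at a distance of 114 bp in the 3′ UTR. No site had its middle in the promoter window of Col1a1, but one overlapped it. Col12a1, Tnc, Fbn1 and Sparc had 2 end sites each, and Thbs1, Thbs2 and Col1a2 were among those with 1. Fbn1, which encodes the microfibril protein fibrillin-1, had them 825 bp downstream (598 bp) and 162 bp inside (262 bp), along with 90 other sites in the gene.

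Of the actin cytoskeleton and adhesion genes, 11 of 23 (47.8%, 29.2 to 67.0%) had an end site, and all 23 had a promoter site. These were Tpm1, Zyx, Myh9, Cald1 and Tagln2 with 2 each, and Vim, Itga5, Lpp, Pxn, Acta2 and Tpm4 with 1 each. At Zyx, which encodes the focal adhesion protein zyxin, sites of 577 and 553 bp lay 323 bp inside and 335 bp downstream of the end. The middle of the downstream site of this pair was at a coding exon of a neighbouring gene. Such pairs, with the last bases of the gene between them, were also seen at Tpm1 (730 bp inside and 233 bp downstream) and, from the matrix list, at Tnc (512 bp inside and 648 bp downstream), which encodes tenascin C. At Itga5, the integrin α5 gene, 1 site of 489 bp covered the end and stood beside a promoter site of 7179 bp.

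Of the immediate early and AP-1 genes, 5 of 13 (38.5%, 17.7 to 64.5%) had end sites. Klf6 had 3, of 308, 354 and 1001 bp, and the widest covered the end. Maff, which encodes a small Maf protein, had 2 and Klf4 1. Fosl2, which encodes an AP-1 subunit, had a site of 1113 bp with its middle 602 bp downstream. Myc had a site of 885 bp with its middle 620 bp downstream and 3572 bp from the nearest TSS. Of the 25 genes of this list, 13 had eligible bases.

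Among 28 genes of TGF-β, YAP and Wnt signalling, 5 (17.9%, 7.88 to 35.6%) had end sites. A promoter site was present at 26 of the 28. The interval holds the 10.2% found for all genes with a promoter site, so the count does not set this list apart from them. The ligand gene Tgfb3 had 4, of 456, 332, 263 and 567 bp, with their middles 762 and 310 bp inside and 242 and 998 bp downstream. All 4 also lay within Ttll5, an overlapping gene on the opposite strand with 71 other sites in it. Spats2l and Usp47 were the other named hosts with 4. The signal transducer Smad3 had 3 sites of 224 to 488 bp, and the inhibitory Smad7 had 3, of 948, 586 and 514 bp. Pmepa1, an inhibitor of TGF-β signalling, had 1 of 1144 bp and Ltbp1, which binds latent TGF-β, 1 of 200 bp. Of 24 mesenchymal transcription factor genes, 7 (29.2%, 14.9 to 49.2%) had end sites, namely Foxc1 with 1118 bp, Tcf4 with 526 bp, Nfib with 435 bp, Ets1 with 365 bp, and narrower sites at Meis1, Foxp1 and Ebf1.

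Of the cytosolic ribosomal protein genes only 14 of 83 had eligible bases, and 4 of these (28.6%, 11.7 to 54.7%), Rps15a, Rps24, Rps20 and Rpl38, had end sites. None of 9 eligible genes of the KMT2 complexes, to which ASH2L belongs, had an end site (upper limit of the share 33.3%). All 9 had a promoter site, and of all such genes 10.2% had an end site, so a count of 0 does not set these 9 apart. None of 17 neuronal genes had an end site (upper limit 17.6%), with promoter sites at 3 of 17. That limit was above the 7.12% of all eligible coding genes and the 3.21% of those without a promoter site. Among 627 olfactory receptor genes, which are silent in fibroblasts, Olfr750 and Olfr876 had 2 end sites each (0.32%, 0.09 to 1.16%), and neither had a promoter site.

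The sequence of end sites was close to that of other distal sites. In the central 200 bases the GC content was 50.8%, compared to 49.1% in other sites beyond 3 kb of a TSS, 56.7% in promoter sites, and 43.9% and 44.3% in windows 500 bp before and after gene ends that had no site. The ratio of observed to expected CpG was 0.23 in end sites and 0.58 in promoter sites. Bases that RefSeq gives in lower case as repeats made up 14.6% of end sites and 19.5% of other distal sites. In windows before and after ends without a site they made up 17.9% and 27.9%. By side, the share was 11.9% in end sites inside the gene and 16.8% in those downstream.

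Motifs were counted by their letters on both strands in the central 200 bases, and a match is not a bound site. TGANTCA (AP-1) was found in 118 end sites (8.49%, 7.14 to 10.1%), compared to 8.97% (8.78 to 9.17%) of other distal sites, 4.89% of promoter sites, and 5.43% and 5.80% of windows before and after ends without a site. The share was 14.4% (11.1 to 18.4%) in end sites of 635 to 8098 bp, 4.90% (3.08 to 7.71%) in those of 371 to 634 bp and 8.33% (5.87 to 11.7%) in those of 200 to 247 bp, so it followed no order of width. GGAATG (TEAD) was found in 11.9% (10.3 to 13.7%) of end sites and 13.1% of other distal sites, TGTGGT (RUNX) in 16.8% of both. CACGTG (E-box) was in 4.03% (3.12 to 5.20%) against 3.09% (2.98 to 3.21%). GGGCGG (GC box) was in 5.47% (4.39 to 6.79%) of end sites and 3.34% (3.22 to 3.46%) of other distal sites, and the intervals did not overlap, and in 22.8% of promoter sites. AATAAA, the poly(A) signal, was in 12.9% (11.2 to 14.7%) of end sites, in 12.9% of other distal sites, and in 24.9% and 22.8% of windows before and after ends without a site. Counted on the strand of the gene alone, it was in 10.0% (7.91 to 12.6%) of end sites inside the gene and 5.52% (4.11 to 7.38%) of those downstream, against 11.9% (11.3 to 12.5%) and 11% (10.5 to 11.6%) of the windows without a site. The windows without a site were centred 500 bp from the end, whereas the middles of end sites were anywhere within 1 kb of it. Their GC content was also lower, with 43.9% before and 44.3% after the end, against 50.8% in end sites. The part of position and base composition in these shares was not tested.

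**Figure D5:**
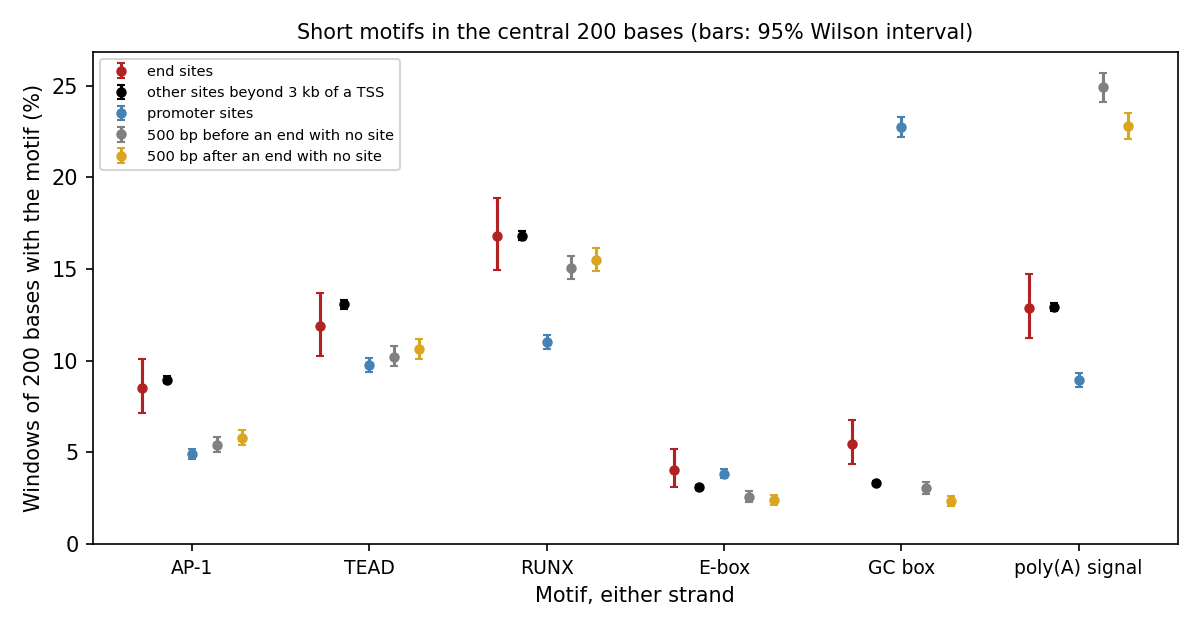
Share of windows of 200 bases that hold each motif (y axis, %), with 95% Wilson intervals, for end sites, other sites beyond 3 kb of a TSS, promoter sites and windows 500 bp before or after gene ends without a site. End sites lie with other distal sites for AP-1 (8.49 and 8.97%) and the poly(A) signal (12.9% in both) and far below promoter sites for the GC box (5.47 and 22.8%).

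The limits of the rule were not natural borders. At Tgfb3 an end site had its middle 998 bp from the end, and at Cyth3 and Ipo8 999 bp, while sites at BC067074 and Hmcn2 missed at 1001 and 1003 bp. In the last 50 bp within the limit were 63 end sites, and 72 sites were in the 50 bp beyond it. At Ppp1r13l and Shisa4 the nearest TSS was 3002 bp away, and sites at Etv4, Gm11627 and R3hdm2 missed at 2999, 2991 and 2990 bp. The 1390 end sites were 48.3% of the 2879 sites near coding gene ends, and another 880 (30.6%) of those were within 1 kb of a TSS.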

How the data were processed

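H3K27ac ChIP-seq was carried out by the authors in iMEF cells. Reads were trimmed with Trim Galore, aligned to mm10 with BWA and filtered with SAMtools, replicates were merged with Picard, and narrow peaks were called with MACS. The deposited file lists positions only (chromosome, start counted from 0, end), and how peaks of different times were joined is not given in the sources used here. No library has a value of its own, so samples were not compared and no p-value is given. The list holds 57 sites outside chromosomes 1 to 19 and X, which entered no comparison of density, width or sequence.

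Gene ends, TSSs and exons were taken from GENCODE M21 (GRCm38), an older release than the one the authors used, and sequences from the RefSeq copy of GRCm38. A gene end is the 3′ limit of the gene record. Eligible bases are known bases within 1 kb of such an end and over 3 kb from every TSS. All values were computed with Python 3.11.15, numpy 2.4.6, pandas 2.3.3 and scipy 1.17.1. The density ratio and the width ratio were tested on simulated sites of 1 chromosome, and the motif search on simulated sequences. The promoter shares and the side of the 3′ end had no independent test of this kind. Intervals are 95% Wilson intervals, and a count of 0 allows up to 3 counts. Members, lists and comparisons were chosen with earlier results of these data known. Named genes were hosts of the 15 widest end sites, the hosts with most end sites, the 4 widest end sites of each gene list, the 8 widest without a promoter site, the 3 shortest and 3 longest hosts, the 3 widest between converging genes, and sites nearest to both limits. Further list members were named from the counts after their values were seen. Some items that these rules select are not reported here.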

Additional observations from a re-analysis of the deposited data

How the results depend on the processing

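No paired analysis was possible because none of the libraries has a value of its own, and for the same reason no replicate could be left out. The share of sites at coding gene ends (1.14%) moved with the rule, to 0.54% with a window of 500 bp, 2.27% with 2 kb, 1.64% with a TSS distance over 1 kb, 0.82% with over 5 kb, 1.93% with the 3′ ends of all coding transcripts, 1.49% with any overlap of the window and 1.04% without the narrowest 25% of sites, as each takes in more or fewer sites. The density ratio of 1.38 stayed above 1 under 9 alternatives (1.30 to 1.45) and turned to 0.90 where only gene bodies were compared. It could not be given for any overlap. The share of middles inside the gene was 41.1% with a window of 500 bp. The share of hosts with a promoter site (80.1%) was 82.5% with all transcript ends, 70.4% with sites less than 1 kb apart merged, 84.0% with a promoter window of 2 kb and 71.0% at the outermost 5′ end only, while genes without an end site had 54.2%, 51.1%, 55.7% and 48.8%. The width ratio of 1.01 was 1.17 with any overlap, which takes in wide sites by construction. Excluding RefSeq TSSs as well, counting sites that overlap the promoter window (82.9% of hosts and 54.8% of other genes), and taking the nearest gene alone as the host (81.5%) were chosen after seeing the data. Where no reason is given, the cause was not tested. Of the 15 widest end sites, 7 were still at a gene end with a window of 500 bp and 9 with merged sites, and 11 to 15 under the other alternatives. The list gives no depth or peak height, so weak and strong sites count alike.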
